A study of Brassica napus with 12 samples.

Results

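*NRT2.1* (BnaA06g04570D) and *NIA1* (BnaCnng60930D) are genes of nitrate uptake and of nitrate reduction, followed here as 2 of the 101038 genes counted in *Brassica napus* root tips. They were chosen by identifier, as the copies of the nitrate transporter and of the nitrate reductase that the study measured by quantitative RT-PCR. Both identifiers were found in the count tables of both varieties. For RT-PCR the study took key genes from clusters grouped by their temperature response in these same libraries. The changes of *NRT2.1* and *NIA1* with temperature are therefore no independent evidence. In Drakkar, *NRT2.1* and *NIA1* both lay lower in every library at 29 °C than in any library at 21 °C, as did 17% of all tested genes. The log2 fold changes were -3.61 for *NRT2.1* and -3.08 for *NIA1*, the latter from 5 reads at 29 °C against 53 at 21 °C. Both lay just short of the threshold of edgeR's quasi-likelihood test and passed that of DESeq2. In Duplo, the temperatures overlapped for both genes. The responses of the varieties were not shown to differ, with edgeR adjusted p-values for the interaction of 0.524 for *NRT2.1* and 0.708 for *NIA1*. At 29 °C, *NRT2.1* was higher in Duplo than in Drakkar, by a log2 fold change of 3.78. This passed the threshold, as 12.5% of all tested genes did between the varieties, and was lost without any of 3 single libraries at 29 °C. Of the other annotated copies of *NRT2.1*, 1 fell in Drakkar at 29 °C, whereas BnaAnng40490D did not (log2 fold change 1.16). That call was kept in 1 of 6 fits that left out 1 library. Summed over the 3 copies of *NRT2.1*, the libraries of the temperatures overlapped in Drakkar. The other 4 annotated copies of *NIA1* all fell in Drakkar at 29 °C, where 0.757% of all tested genes fell. Each of these 4 calls was kept in only 0 to 2 of 6 fits that left out 1 library. These copies are known from an annotation that covers genes reported as responding to temperature, so their count is no independent evidence.

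Plant roots take up nitrate from dilute solutions with high-affinity transporters of the NRT2 family, of which NRT2.1 carries most of the high-affinity uptake in *Arabidopsis thaliana* together with its partner protein NRT3.1 (NAR2.1). In the cytosol, nitrate reductase (NIA) reduces nitrate to nitrite with electrons from NAD(P)H. Nitrite reductase (NIR) of the plastid then forms ammonium, which glutamine synthetase builds into glutamine. In *Arabidopsis* roots, *NIA1*, *NIR1* and the genes that supply reducing power to the plastid are known as genes induced by nitrate, and *NRT2.1* is induced by nitrate and repressed by a good supply of reduced nitrogen.

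Root tips were taken from 2 varieties of spring oilseed rape, Duplo and Drakkar, whose seeds were germinated for 3 days on quarter-strength MS agar and whose seedlings were then grown for 7 days at a constant 29 °C or 21 °C in pouches with quarter-strength MS solution, with 16 h of light per day. Each of the 4 groups (Duplo at 29 °C, Duplo at 21 °C, Drakkar at 29 °C and Drakkar at 21 °C) had 3 biological replicates, each of 18 seedlings from 3 pouches, which gave 12 libraries. The sample labels give a tip length of 1 cm and the study's methods one of 0.5 cm, so how much of the root-hair zone was sampled is uncertain. As the samples are bulk tissue, fewer cells that express a gene and less RNA of it per cell cannot be told apart.

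Between 26554987 and 39934384 reads were counted on genes per library. The third Duplo library at 29 °C stood apart from the other 11 on the second principal component of the 12 libraries (18.4% of the variance of log2 CPM), with a score of -122, against -73.3 to 66.0 in the others. Of 32 marker loci of root cap, meristem, root hair, endodermis, xylem and leaf, only *CASP1* and *COW1* could be matched to a gene with the study's annotation, so the tissue label was checked on these alone. *COW1* (BnaA03g52910D), a root hair gene, had reads in every library, at 0.0913 to 0.596 CPM (reads per 1000000 counted reads, on one scale for all 12 libraries). *CASP1* (BnaC04g09210D), which marks the endodermis with its Casparian strip, lay between 1.82 and 9.10 CPM.

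The identity of each copy rests on its identifier and on the primer pairs with which the study measured it, which are shown here because *B. napus* carries several copies of both genes. Each primer is written from its 5′ to its 3′ end, and the primers are 20 to 22 bases long. Their positions in the genome and their match to the other copies were not analysed here.
NRT2.1 forward: ggtttgctgagaacgccaag
NRT2.1 reverse: tcttgacagatcatcggtgtga
NIA1 forward: actacacctggtcacgaagag
NIA1 reverse: cctctcaacgtgtacggctt
By its identifier, the *NRT2.1* copy belongs to chromosome A06, whereas the *NIA1* copy belongs to a sequence of the C subgenome that is not assigned to a chromosome.

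*NRT2.1* had 455, 100 and 43 reads in the Duplo libraries at 29 °C, against 39, 121 and 95 reads in those at 21 °C. These counts correspond to 14.5, 3.74 and 1.51 CPM in Duplo at 29 °C, against 1.21, 4.15 and 3.22 CPM in Duplo at 21 °C. The first library at 29 °C was the highest of all 12, while the other two lay within the range of the libraries at 21 °C. In Drakkar, *NRT2.1* had 2, 36 and 5 reads at 29 °C, against 98, 416 and 132 reads at 21 °C. On the CPM scale, these were 0.0618, 1.20 and 0.175 CPM in Drakkar at 29 °C, against 2.91, 10.5 and 4.02 CPM in Drakkar at 21 °C. All 3 warm libraries of Drakkar were therefore below the 3 control libraries. They were also below each Duplo library, though the nearest pair, at 1.20 CPM in Drakkar at 29 °C and 1.21 CPM in Duplo at 21 °C, cannot be told apart at these counts. The group means were 6.57 ± 6.93 CPM in Duplo at 29 °C and 2.86 ± 1.50 CPM in Duplo at 21 °C, and 0.479 ± 0.628 CPM in Drakkar at 29 °C and 5.81 ± 4.10 CPM in Drakkar at 21 °C (SD, n = 3 each). In the order of these means, the ranges of neighbouring groups overlapped from Duplo at 29 °C over Drakkar at 21 °C to Duplo at 21 °C, and Drakkar at 29 °C stood below.

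*NIA1* was counted at a far lower depth. It had 5, 10 and 0 reads in the Duplo libraries at 29 °C, against 6, 6 and 6 reads in those at 21 °C. In CPM, these were 0.159, 0.374 and 0 in Duplo at 29 °C, against 0.186, 0.206 and 0.204 in Duplo at 21 °C. The libraries at 29 °C lay on both sides of those at 21 °C, and the library without a read was the one that stood apart. In Drakkar, *NIA1* had 1, 0 and 4 reads at 29 °C, against 11, 26 and 16 reads at 21 °C. The corresponding values were 0.0309, 0 and 0.140 CPM in Drakkar at 29 °C, against 0.326, 0.656 and 0.487 CPM in Drakkar at 21 °C. Again no warm library reached the lowest control library in Drakkar. A count of 0 allows up to 3 reads, which is 0.100 CPM in the second Drakkar library at 29 °C and 0.105 CPM in the third Duplo library at 29 °C. The group means were 0.178 ± 0.188 CPM in Duplo at 29 °C and 0.199 ± 0.0109 CPM in Duplo at 21 °C, and 0.0570 ± 0.0736 CPM in Drakkar at 29 °C and 0.490 ± 0.165 CPM in Drakkar at 21 °C (SD, n = 3 each). In the order of these means, Drakkar at 21 °C stood above Duplo at 21 °C without overlap, and from there the ranges of neighbouring groups overlapped, over Duplo at 29 °C to Drakkar at 29 °C. The second Duplo library at 29 °C, with 0.374 CPM, lay above the lowest Drakkar library at 21 °C, with 0.326 CPM.

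The counts limit how closely a single library can be read. The 2 reads of *NRT2.1* in the first Drakkar library at 29 °C have an exact Poisson interval (95%) of 0.00749 to 0.223 CPM, and the 98 reads in the first library at 21 °C one of 2.36 to 3.54 CPM. For *NIA1*, the interval of the 4 reads in the third Drakkar library at 29 °C, 0.0382 to 0.359 CPM, reached above the value of the lowest control library. Such intervals and the limits for a count of 0 cover counting error only.

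**Figure D1:**
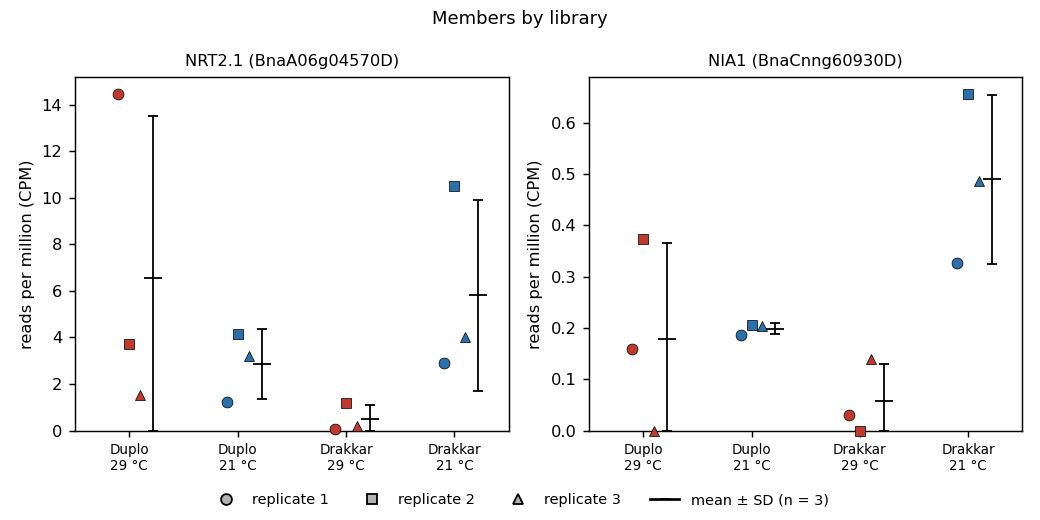
CPM of *NRT2.1* (left) and *NIA1* (right) in the 12 libraries by variety and temperature. Each symbol is a library and the bar beside them gives the mean and SD (n = 3), with the SD not drawn below 0. For both genes, all Drakkar libraries at 29 °C lie below those at 21 °C, as for 17% of all tested genes. The Duplo groups overlap.

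The response to warm temperature was tested within each variety with edgeR, and a gene counted as a DEG when its Benjamini-Hochberg adjusted p lay under 0.05 and it differed by more than 1 on the log2 scale in either direction. In Drakkar, *NRT2.1* had a log2 fold change of -3.61 (SE 0.88, edgeR adjusted p = 0.0545) and *NIA1* one of -3.08 (SE 0.73, edgeR adjusted p = 0.0515). So 0 of the 2 genes were DEGs in Drakkar with edgeR, where 3.24% of the 52709 tested genes were, although their unadjusted p-values were 0.00397 and 0.00339. With DESeq2, both were DEGs, with adjusted p-values of 0.0274 for *NRT2.1* and 0.0175 for *NIA1*, against 4.72% of all tested genes. All 3 warm libraries lay below all 3 control libraries for both genes, which was so for 17% of all tested genes. The fall of *NRT2.1* was made smaller by the second warm library, which had 36 of the 43 warm reads. Without this library, the log2 fold change was -5.61 with an edgeR adjusted p of 0.0141. Without the second control library, it was -2.85 with an edgeR adjusted p of 0.139. The fold changes kept their direction in each fit that left out a library. They ranged from -5.61 to -2.85 for *NRT2.1*, over 6 fits, and from -4.65 to -2.52 for *NIA1*, over the 4 fits in which it had enough reads to be tested.

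In Duplo, *NRT2.1* had a log2 fold change of 1.20 (SE 0.83) between 29 °C and 21 °C with an edgeR adjusted p of 0.443. There, 0.00194% of 51673 tested genes, a single gene, were DEGs with edgeR, 10272 genes had an unadjusted p under 0.05, and DESeq2 called 1.8%. The direction for *NRT2.1* depended on the first library at 29 °C, without which the log2 fold change was -0.11, whereas without the third library, the one that stood apart, it was 1.68 with an edgeR adjusted p of 0.188. *NIA1* had too few reads in Duplo to pass the filter on low counts. The ratio of its mean CPM at 29 °C to that at 21 °C was -0.16 on the log2 scale, without a test, and edgeR on all genes without the filter gave -0.17 (SE 0.96).

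Whether the responses of the varieties differed was tested on all 12 libraries, as the interaction between variety and temperature. The response of Duplo minus that of Drakkar was 4.81 on the log2 scale for *NRT2.1* (SE 1.38, edgeR adjusted p = 0.524) and 2.88 for *NIA1* (SE 1.3, edgeR adjusted p = 0.708). No difference passed the threshold among the 55227 genes with edgeR (0% called), where 3891 genes had an unadjusted p under 0.05, *NRT2.1* (0.00513) and *NIA1* (0.0485) among them. DESeq2 called 0.244% of the genes in the interaction but neither of these, with adjusted p-values of 0.174 and 0.688. With 1 library left out, edgeR called 0 to 137 genes, 137 both without the Duplo library that stood apart and without the second Duplo library at 21 °C. Without the library that stood apart, the difference was 5.29 for *NRT2.1* (edgeR adjusted p = 0.0901) and 3.48 for *NIA1* (edgeR adjusted p = 0.139). So the responses of the 2 varieties, however far apart their estimates, were not shown to differ for these genes.

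A direct comparison of the varieties at each temperature gave 1 call. At 29 °C, *NRT2.1* was higher in Duplo (14.5, 3.74 and 1.51 CPM) than in Drakkar (0.0618, 1.20 and 0.175 CPM), with a log2 fold change of 3.78 (SE 1.05, edgeR adjusted p = 0.0251). At this temperature 12.5% of the genes were called between the varieties, 5.85% as higher in Duplo. The Duplo libraries were all above the Drakkar libraries for 14.9% of the genes. The call was lost without the first Duplo library (2.45, edgeR adjusted p = 0.122), without the first Drakkar library (3.23, 0.0879) or without the third Drakkar library at 29 °C (3.38, 0.0970), and it held without the Duplo library that stood apart (4.25, 0.00768). For *NIA1* the log2 fold change of Duplo over Drakkar at 29 °C was 1.59 (SE 1.04, edgeR adjusted p = 0.349), and it was 0.54 without the second Duplo library at 29 °C and 3.16 without the third Drakkar library at 29 °C. At 21 °C, where 11.7% of the genes were called, it was -1.03 for *NRT2.1* (SE 0.89, edgeR adjusted p = 0.552), with overlapping libraries, and -0.29 without the second Drakkar library at 21 °C. For *NIA1* at 21 °C it was -1.29 (SE 0.78, edgeR adjusted p = 0.340), with all Duplo libraries below all Drakkar libraries, as for 18.3% of the genes.

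**Figure D2:**
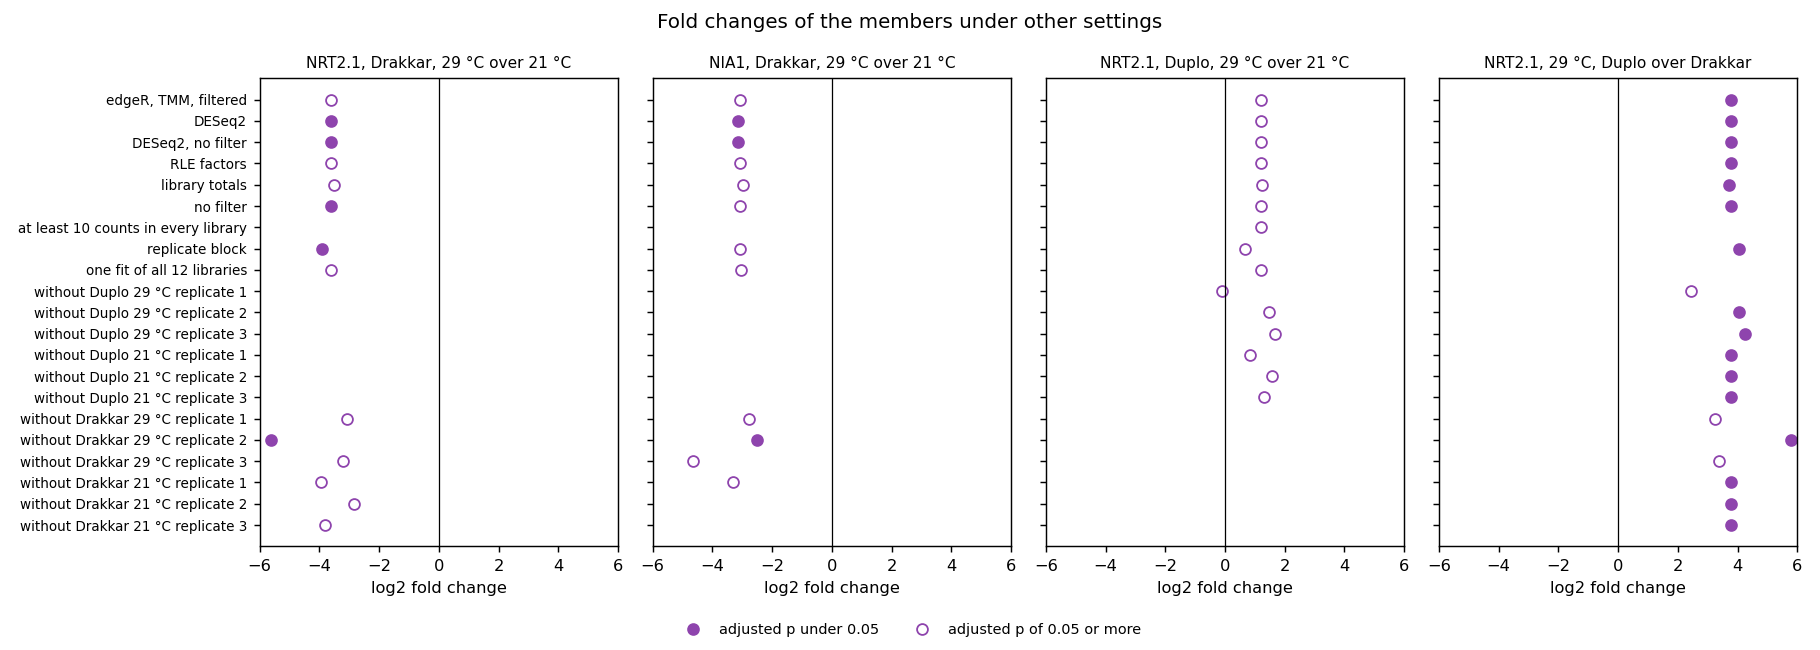
Log2 fold changes of *NRT2.1* and *NIA1* (x axis) under edgeR with TMM factors and a filter on low counts (top row) and under each alternative or left-out library that gave a test (rows below); filled symbols have an adjusted p under 0.05. Both Drakkar responses stay below 0 on either side of the threshold, the Duplo response of *NRT2.1* (1.20) crosses 0 without the first library at 29 °C (-0.11), and the difference in *NRT2.1* between the varieties at 29 °C stays above 2.

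*B. napus* has an A and a C subgenome, and the study's annotation names 3 genes *NRT2.1* and 5 genes *NIA1*. Reads of such near-identical copies can be divided wrongly between them, and how reads that align to several genes were counted is not given in the sources used here. CPM is not corrected for gene length, so the copies are compared between groups and not with each other as levels. The *NRT2.1* copy BnaC08g43380D, on chromosome C08, followed the A06 copy. It had 2.61, 1.31 and 0.141 CPM in Duplo at 29 °C, against 0.558, 0.755 and 0.645 CPM in Duplo at 21 °C. In Drakkar it had 0.155, 0.701 and 0.175 CPM at 29 °C, against 2.28, 3.71 and 1.37 CPM at 21 °C. It fell in Drakkar, by 2.84 on the log2 scale (SE 0.61, edgeR adjusted p = 0.0429), and had 1.06 (SE 0.81, edgeR adjusted p = 0.487) in Duplo. Its call in Drakkar, where 0.757% of all tested genes fell, was kept in 1 of the 6 fits that left out a library. The edgeR adjusted p reached 0.128 in these fits. As for the A06 copy, the second warm library of Drakkar was the highest of the 3 warm ones.

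The other *NRT2.1* copy, BnaAnng40490D, went its own way. It had 6.07, 3.44 and 2.56 CPM in Duplo at 29 °C, against 1.43, 1.61 and 1.76 CPM in Duplo at 21 °C. All warm libraries of Duplo were above the control libraries, as for 13.2% of the genes tested in Duplo, with a log2 fold change of 1.34 (SE 0.33) that missed the threshold of edgeR (adjusted p = 0.124) and passed that of DESeq2 (adjusted p = 0.0202). In Drakkar, this copy had 3.56, 0.167 and 5.40 CPM at 29 °C, against 0.504, 2.63 and 0.822 CPM at 21 °C (log2 fold change 1.16, SE 0.97, edgeR adjusted p = 0.459). Of the Drakkar libraries at 29 °C, the second was thus the lowest for BnaAnng40490D and the highest for BnaA06g04570D. Of those at 21 °C, the second was the highest for both copies.

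As a share of the reads on the 3 *NRT2.1* copies, the A06 copy took 62.5%, 44.1% and 35.8% in Duplo at 29 °C, against 37.9%, 63.7% and 57.2% in Duplo at 21 °C. In Drakkar, it took 1.64%, 58.1% and 3.05% at 29 °C, against 51.0%, 62.4% and 64.7% at 21 °C. So the first and the third Drakkar libraries at 29 °C had hardly any of their *NRT2.1* reads on this copy, unlike the other 10 libraries. Summed over the 3 copies, the libraries overlapped in Drakkar, with 3.77, 2.07 and 5.75 CPM at 29 °C, against 5.70, 16.8 and 6.21 CPM at 21 °C. The sum in Duplo was 23.1, 8.48 and 4.22 CPM at 29 °C, against 3.19, 6.52 and 5.63 CPM at 21 °C.

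The *NIA1* copy that was chosen held few of the *NIA1* reads. Of the reads on the 5 copies it took 0.337% ± 0.383 in Duplo at 29 °C and 0.541% ± 0.102 in Duplo at 21 °C, and 0.160% ± 0.219 in Drakkar at 29 °C and 0.539% ± 0.106 in Drakkar at 21 °C (mean ± SD over libraries, n = 3 each). The other copies carried the family's reads and gave the response in Drakkar with far higher counts. BnaA07g20840D had 3.91, 2.65 and 0.351 CPM in Duplo at 29 °C, against 1.89, 2.51 and 2.14 CPM in Duplo at 21 °C. In Drakkar, this copy had 4.08, 3.27 and 2.1 CPM at 29 °C, against 8.22, 19.6 and 13.2 CPM at 21 °C. The warm libraries of Drakkar were all below its control libraries, as for 17% of the genes tested in Drakkar. The control libraries of Drakkar stood above all 9 others.

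BnaC06g38300D had 23.1, 14.1 and 12.4 CPM in Duplo at 29 °C, against 10.4, 12.2 and 16.2 CPM in Duplo at 21 °C. In Drakkar, it had 12.9, 12.2 and 10.6 CPM at 29 °C, against 21.5, 33.0 and 34.4 CPM at 21 °C. For BnaA07g33690D, the Duplo libraries held 28.8, 24.3 and 11.8 CPM at 29 °C, against 13.7, 17.8 and 23.8 CPM at 21 °C. Its levels in Drakkar were 21.1, 12.6 and 17.0 CPM at 29 °C, against 29.8, 33.0 and 40.3 CPM at 21 °C. The pattern of these copies was that of BnaA07g20840D, with no overlap in Drakkar and overlap in Duplo. BnaC06g20690D, with 6.46, 3.14 and 4.34 CPM in Drakkar at 29 °C, against 8.81, 13.0 and 13.0 CPM in Drakkar at 21 °C, did likewise, and had 5.50, 8.18 and 2.56 CPM in Duplo at 29 °C, against 3.72, 3.26 and 5.33 CPM in Duplo at 21 °C.

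All 4 of these copies fell in Drakkar. The log2 fold changes were -2.12 for BnaA07g20840D (SE 0.36), -1.32 for BnaC06g38300D (SE 0.19), -1.32 for BnaC06g20690D (SE 0.28) and -1.03 for BnaA07g33690D (SE 0.20), and the edgeR adjusted p-values lay between 0.0206 and 0.0397. Genes that fell made up 0.757% of those tested in Drakkar. Scaling by library totals alone moved the median of all genes in Drakkar to 0.13 on the log2 scale and that of BnaA07g33690D to -0.91, which ended its call, and turned no direction among the *NRT2.1* and *NIA1* copies. When 1 library was left out in turn, the direction was the same in all 6 fits for each copy, and edgeR kept the call in 0 to 2 of the 6. In Duplo, the same copies had log2 fold changes of 0.09 to 0.41, and none was a DEG with edgeR or with DESeq2. Their interaction terms, 1.26 to 2.20, did not pass with edgeR, with adjusted p-values of 0.499 to 0.619. DESeq2 called 1 of them, BnaC06g38300D (1.69, adjusted p = 0.0108), beside 0.244% of all tested genes. It was the only call by DESeq2 in the interaction among the 33 other nitrate genes.

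Between the varieties at 21 °C, 3 of the 4 copies were lower in Duplo than in Drakkar, as were 6% of all genes, by log2 fold changes of -2.65 for BnaA07g20840D, -1.50 for BnaC06g20690D and -1.20 for BnaC06g38300D (edgeR adjusted p of 0.00853, 0.0184 and 0.00635), and BnaA07g33690D had -0.90 (edgeR adjusted p = 0.0762). At 29 °C, their log2 fold changes lay between -0.45 and 0.47 and 0 of 4 were called. Summed over the 5 copies, *NIA1* reads came to 61.5, 49.6 and 27.1 CPM in Duplo at 29 °C, against 29.9, 36.0 and 47.7 CPM in Duplo at 21 °C. In Drakkar, the sums were 44.6, 31.2 and 34.2 CPM at 29 °C, against 68.7, 99.3 and 101 CPM at 21 °C. Drakkar at 21 °C was the group that stood out, above all other libraries.

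**Figure D3:**
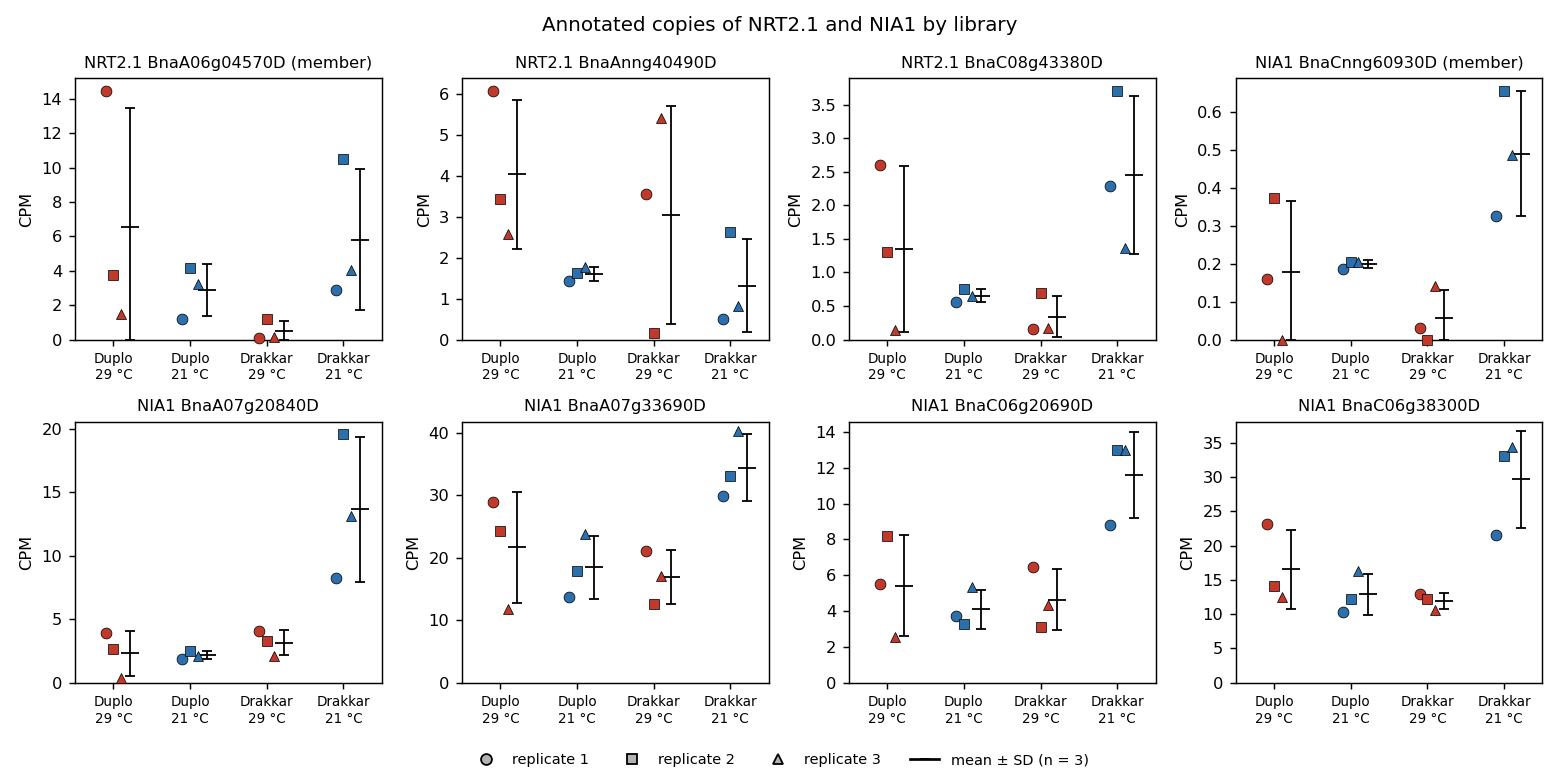
CPM of the 3 annotated *NRT2.1* copies and the 5 annotated *NIA1* copies in the 12 libraries, each panel with its own axis from 0. Symbols are libraries and bars the mean and SD (n = 3), not drawn below 0. In 5 *NIA1* panels and 2 *NRT2.1* panels the Drakkar libraries at 29 °C lie below those at 21 °C. BnaAnng40490D is the exception. All warm libraries lay below the control libraries for 17% of all genes tested in Drakkar. The copies come from an annotation of genes reported as responding to temperature.

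Of 93 nitrate loci listed from *Arabidopsis*, 21 had at least 1 annotated gene, 35 genes in all, including *NRT2.1* and *NIA1*. The annotation covers the genes that the study reported as responding to temperature or as clustered by their response, so the list was in effect chosen on these samples and its counts are no independent evidence. In Drakkar, 18 of the other 33 genes were DEGs, 11 higher and 7 lower, beside 3.24% of all tested genes, and 25 of 33 had a log2 fold change above 0. Their median was 1.21, against 0.01 for all genes. The number called was 0 to 4 when any of the Drakkar libraries at 21 °C, or the first or the third at 29 °C, was left out, and 19 without the second at 29 °C. In Duplo, 31 of the 33 could be tested, and 0 were DEGs with edgeR, with a median of 0.92, against 0.04 for all genes. DESeq2 called 26 of them in Drakkar, where it called 4.72% of all genes. In Duplo it called 9, all 9 higher, where it called 1.11% of all genes higher. Without the Duplo library that stood apart, edgeR called 4 of them in Duplo, among them BnaAnng40490D with a log2 fold change of 1.58 (edgeR adjusted p = 0.0498).

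By role, the 4 other *NIA1* copies and 1 of the 2 other *NRT2.1* copies fell in Drakkar, and of the genes of the other roles 11 rose and 2 fell, beside 2.48% of all tested genes that rose and 0.757% that fell. Among the 4 genes of nitrite reduction and its supply of electrons, 0 were DEGs in either variety with edgeR. DESeq2 called 4 of 4 higher in Duplo, beside 1.11% of all tested genes. The study also used DESeq2 on these libraries to report the genes that the annotation covers, so this count is no independent evidence. *NIR1* (BnaA07g04150D), the plastid nitrite reductase, had 3.88, 7.36 and 29.8 CPM in Duplo at 29 °C, against 2.39, 2.78 and 2.24 CPM in Duplo at 21 °C. In Drakkar it had 4.39, 25.4 and 6.45 CPM at 29 °C, against 3.09, 3.48 and 3.99 CPM at 21 °C. All warm libraries were above the control libraries in both varieties, as for 13.2% of the genes tested in Duplo and 17.9% in Drakkar. The height came from 1 warm library of each variety. These were the third of Duplo, which stood apart, and the second of Drakkar, the one with most of the warm *NRT2.1* reads. The edgeR log2 fold changes were 2.50 in Duplo (SE 0.75, adjusted p = 0.159) and 1.78 in Drakkar (SE 0.63, adjusted p = 0.118).

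The same 2 libraries were the highest for *G6PD3* (BnaA08g31100D), a plastid glucose-6-phosphate dehydrogenase that provides NADPH. It had 6.49, 13.8 and 46.4 CPM in Duplo at 29 °C, against 5.83, 6.56 and 4.99 CPM in Duplo at 21 °C, and 4.02, 28.9 and 5.12 CPM in Drakkar at 29 °C, against 3.71, 4.17 and 3.78 CPM in Drakkar at 21 °C. Likewise, *RFNR2* (BnaA09g26030D), the root ferredoxin-NADP reductase that passes electrons on to ferredoxin, reached 371 CPM in the third Duplo library and 422 CPM in the second Drakkar library at 29 °C. In the other 10 libraries it lay between 75.2 and 166 CPM. *LBD37* (BnaA07g37360D), a LOB domain repressor of nitrogen genes in *Arabidopsis*, had 221 CPM and 148 CPM in these libraries. In the other 10 libraries, it lay between 40.1 and 97.5 CPM.

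**Figure D4:**
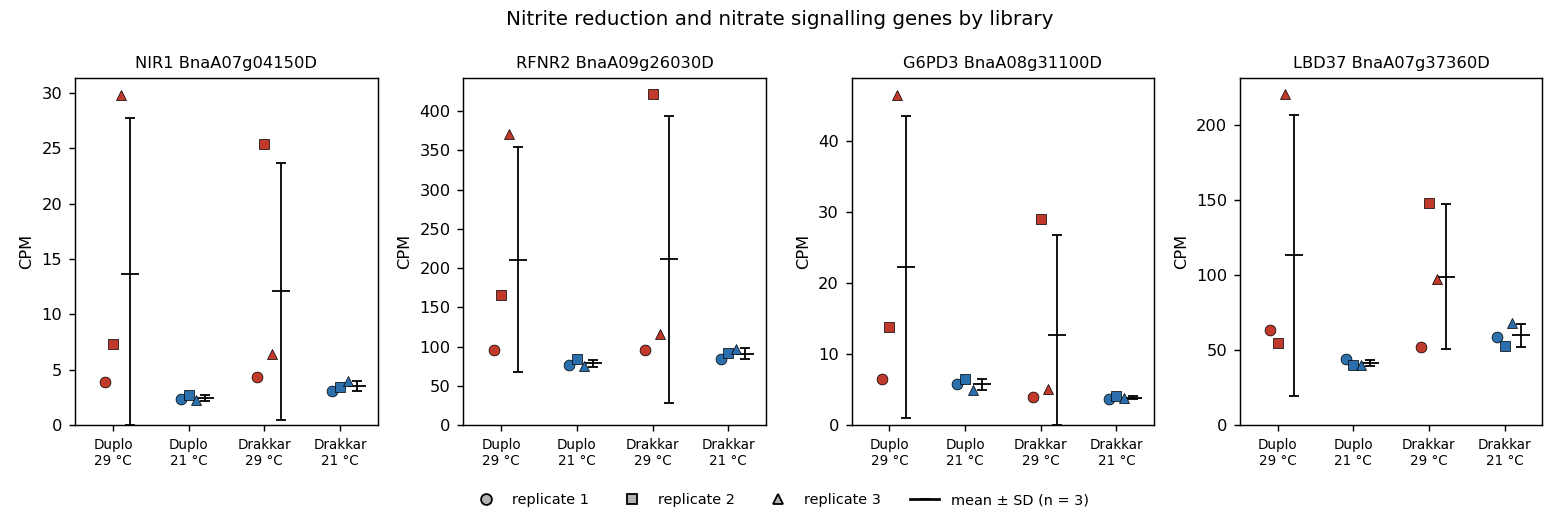
CPM of *NIR1*, *RFNR2* (BnaA09g26030D), *G6PD3* and *LBD37* in the 12 libraries, with symbols for libraries and bars for the mean and SD (n = 3), not drawn below 0. In each panel the highest library of Duplo is the third at 29 °C and the highest of Drakkar is the second at 29 °C.

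Of the 11 genes of the NPF family, which holds low-affinity nitrate transporters, 6 rose and 1 fell in Drakkar, where 2.48% of all genes rose and 0.757% fell, and 0 of the 10 tested were DEGs in Duplo with edgeR. Each of the calls in Drakkar was kept in only 1 to 3 of the 6 fits that left out a library. *NPF2.13* rose with both of its copies. BnaC06g25140D had 5.32, 3.27 and 3.99 CPM in Drakkar at 29 °C, against 1.07, 0.682 and 0.639 CPM in Drakkar at 21 °C (a log2 fold change of 2.39, SE 0.28, edgeR adjusted p = 0.0130), and BnaA07g24080D changed by 1.74. NPF2.13 moves nitrate out of old leaves by the phloem in *Arabidopsis*. *NPF7.2* (BnaCnng78690D), which in *Arabidopsis* takes nitrate back from the xylem sap, rose in Drakkar by 2.92 (SE 0.68, edgeR adjusted p = 0.0494), and in Duplo at 29 °C had 0.890, 1.61 and 162 CPM, against 3.97, 2.54 and 6.28 CPM in Duplo at 21 °C. The last of the warm values was again that of the library that stood apart.

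*NPF7.3*, which loads nitrate into the xylem, rose in 1 of its 3 copies in Drakkar, BnaC05g28620D, by 2.09 (SE 0.46, edgeR adjusted p = 0.0451). In the third Duplo library at 29 °C, this copy had 24.2 CPM, against 0.509 and 1.05 CPM in the other warm libraries of Duplo and 4.34, 6.56 and 4.34 CPM in Duplo at 21 °C. Without the third library, it fell in Duplo, by 2.72 on the log2 scale (edgeR adjusted p = 0.0427), as did BnaA09g24330D, by 2.52 (edgeR adjusted p = 0.0492). The call in Duplo thus depended on this library. *NPF2.9* rose in Drakkar with 1 of 2 copies, BnaA06g13070D, by 1.69, and *NPF2.3* (BnaA01g26960D) by 2.47.

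*NPF1.1* (BnaA01g28150D) was the NPF gene that fell. It had 0.804, 0.934 and 0.490 CPM in Drakkar at 29 °C, against 1.72, 2.63 and 1.80 CPM in Drakkar at 21 °C (log2 fold change -1.46, SE 0.31, edgeR adjusted p = 0.0407). *NPF6.3* (BnaA09g47380D), the dual-affinity transporter and nitrate sensor also known as NRT1.1, had 13.8, 17.6 and 13.4 CPM in Drakkar at 29 °C, against 25.4, 45.2 and 22.7 CPM in Drakkar at 21 °C. Its warm libraries were all below its control libraries, as for 17% of the genes tested in Drakkar. The log2 fold change of -1.06 (SE 0.28) missed the threshold of edgeR (adjusted p = 0.0622) and passed that of DESeq2 (adjusted p = 0.00341).

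Among the 8 genes of nitrate signalling, 4 rose in Drakkar and 0 fell, beside 2.48% and 0.757% of all tested genes. They were the bZIP factor gene *TGA4* (BnaA02g00310D, 1.18), the calcium sensor gene *CBL9* (BnaA02g24990D, 1.70), *MYB59* (BnaA10g12770D, 1.74) and the repressor gene *LBD38* (BnaC08g21490D, 1.08), with edgeR adjusted p-values of 0.0150 to 0.0424, and each call was kept in 1 of the 6 fits that left out a library. *CBL9* had 4.39, 3.81 and 4.99 CPM in Duplo at 29 °C, against 2.14, 2.23 and 2.68 CPM in Duplo at 21 °C, and 5.26, 4.50 and 5.36 CPM in Drakkar at 29 °C, against 1.87, 1.62 and 1.13 CPM in Drakkar at 21 °C. Its warm libraries were above its control libraries in both varieties, as for 13.2% of the genes in Duplo and 17.9% of those in Drakkar. Of the 4 genes of ammonium assimilation, glutamine synthetase *GLN1;2* had 1 copy that rose in Drakkar, BnaA02g03140D (2.1, edgeR adjusted p = 0.0407), and 1 that fell, BnaCnng23850D (-1.13, edgeR adjusted p = 0.0118). These calls were kept in 1 and 2 of the 6 fits that left out a library.

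BnaCnng23850D was, beside *NRT2.1*, 1 of the nitrate genes called higher in Duplo than in Drakkar at 29 °C. It had 149, 53.5 and 64.5 CPM in Duplo at 29 °C, against 12.2, 13.8 and 11.8 CPM in Drakkar at 29 °C (log2 fold change 2.82, SE 0.37, edgeR adjusted p = 0.000206). At 21 °C its mean was also higher in Duplo, with 63.4 ± 20.8 CPM against 27.5 ± 2.77 CPM in Drakkar (SD, n = 3 each). Of the 33 other nitrate genes, 3 were called at 29 °C, 2 higher and 1 lower in Duplo, and 5 at 21 °C, 2 higher and 3 lower, beside 12.5% and 11.7% of all tested genes.

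**Figure D5:**
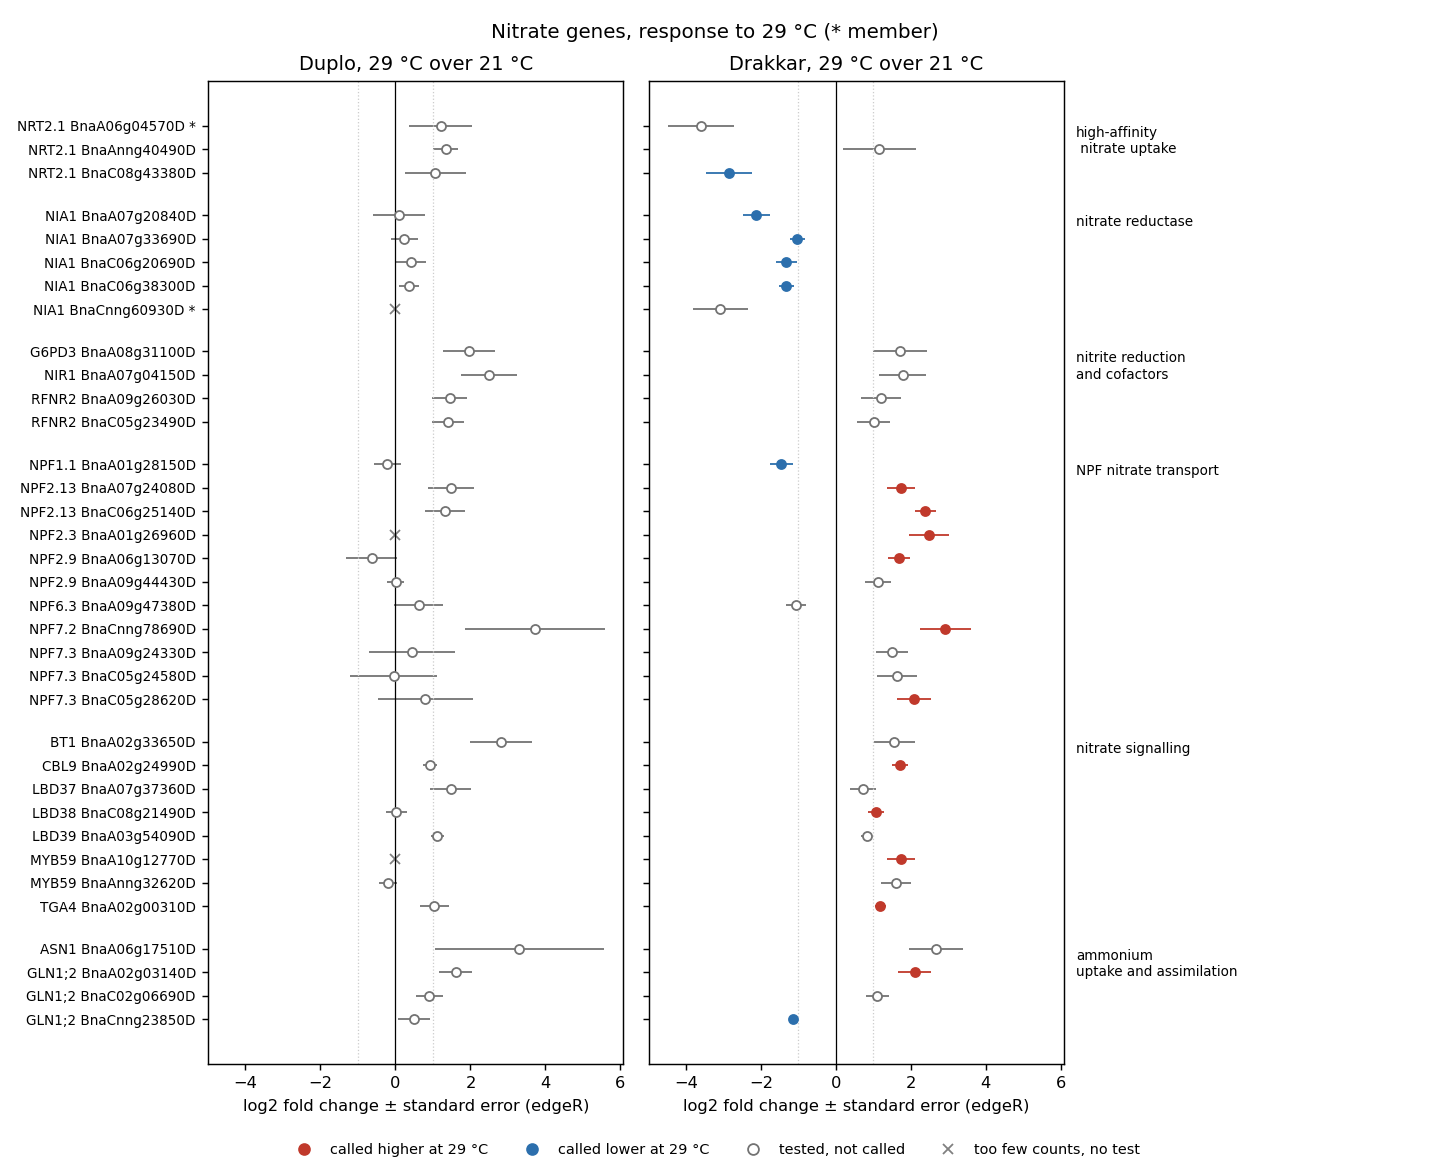
Log2 fold changes between 29 °C and 21 °C with standard errors (edgeR) for the 35 nitrate genes by role, in Duplo (left) and Drakkar (right). Filled symbols are DEGs, higher (red) or lower (blue), open symbols were tested and not called, and crosses mark genes with too few counts in Duplo; in Drakkar 11 genes are red and 7 blue, and in Duplo none is filled.

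The genes most like *NRT2.1* over the 12 libraries, by Pearson's r of log2 CPM among 55226 other tested genes, were BnaC06g43520D (r = 0.94) and BnaC05g45250D (r = 0.93), which the study's annotation does not name. Among the 2182 annotated genes, they were *IAMT1* (BnaC09g31650D, r = 0.90), whose product methylates the auxin IAA, and BnaA07g20640D (r = 0.89). For *NIA1* the most like were BnaC08g36020D (r = 0.93) and *NPH3* (BnaC09g06320D, r = 0.91), a signalling gene of phototropism, followed among the annotated genes by the calreticulin gene *CRT1b* (BnaC07g00750D, r = 0.91). *IAMT1* had 6.84, 6.02 and 3.02 CPM in Duplo at 29 °C, against 3.75, 4.94 and 3.50 CPM in Duplo at 21 °C, and 1.27, 1.50 and 0.736 CPM in Drakkar at 29 °C, against 3.20, 5.58 and 3.96 CPM in Drakkar at 21 °C. Like *NRT2.1*, it was lowest in the warm libraries of Drakkar. As *IAMT1* was chosen for its likeness to *NRT2.1* over these libraries, this is no separate result. With each other, *NRT2.1* and *NIA1* had r = 0.61, and *NRT2.1* had r = 0.86 with its C08 copy and 0.03 with BnaAnng40490D. These values describe 12 libraries that share varieties, temperatures and sampling, and the low counts of *NIA1* limit its values.

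The marker gene *CASP1* lay lower at 29 °C in Drakkar, as *NRT2.1* and *NIA1* did. It had 5.16, 4.47 and 1.82 CPM in Drakkar at 29 °C, against 8.69, 8.96 and 9.10 CPM in Drakkar at 21 °C (log2 fold change -1.22, SE 0.33, edgeR adjusted p = 0.0693), and 8.90, 7.25 and 3.83 CPM in Duplo at 29 °C, against 3.13, 5.70 and 3.84 CPM in Duplo at 21 °C. *COW1* rose in Drakkar by 1.95 (SE 0.37, edgeR adjusted p = 0.0323), with 0.526, 0.434 and 0.596 CPM at 29 °C, against 0.119, 0.177 and 0.0913 CPM at 21 °C. This call, beside 2.48% of all tested genes that rose, rests on 47 reads at 29 °C and 14 at 21 °C. It was kept in 1 of the 6 fits that left out a library. Both markers were matched through an annotation of genes reported as responding to temperature, so their changes are no independent evidence. Their part in the results for *NRT2.1* and *NIA1* was not tested.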

How the data were processed

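Poly(A) RNA of 12 root-tip samples was sequenced. The authors aligned the reads to a rapeseed genome assembly with HISAT2, per the labels and the study's methods, and deposited for each variety the count of reads on each gene, without normalization. The study's methods name the assembly, of which no coordinates are used. The counting program and its use of strand are not given in the sources used here. The authors also deposited their own DESeq2 comparisons of the temperatures (log2 fold changes, standard errors and p-values), which were not used. A row without a gene name, at most 6.55e-06% of a library, was left out.

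Counts were filtered with filterByExpr, scaled with TMM factors and tested with edgeR's quasi-likelihood test (glmQLFit, glmQLFTest) and Benjamini-Hochberg adjustment over all tested genes, within each variety, and over all 12 libraries for the interaction and the comparisons of varieties. The block of replicate numbers was not part of these fits. Standard errors were obtained from the log2 fold change and the F statistic, as their size over the root of F. CPM used TMM factors of all 12 libraries, and 0.5 was added before log2 for the principal components and the correlations. The tests were tried on simulated counts.

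Libraries were grouped by their labels. No 2 libraries of a group agreed within sampling noise (chi-square per degree of freedom 7.98 to 60.5), so all were kept as separate replicates. Named are *NRT2.1* and *NIA1*, all genes that the study's supplementary annotation places at listed nitrate or marker loci, and the 2 genes most like each by Pearson's r, among all tested and among annotated genes. The members and lists were chosen with earlier results of these data known.

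The alternatives were DESeq2, RLE factors, library totals, no filter, a minimum of 10 counts in each library, the replicate block, one fit of all 12 libraries, and each library left out. DESeq2 without the filter was added after the data were seen. The fits used edgeR 4.0.16 and DESeq2 1.42.0 in R 4.3.3, and the summaries and plots Python 3.11.15 with pandas 2.3.3, numpy 2.4.6, matplotlib 3.10.9 and scipy 1.17.1.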

Additional observations from a re-analysis of the deposited data

How the results depend on the processing

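Over the alternatives, 154 of 156 values for the 10 comparisons of *NRT2.1* and *NIA1* kept their direction. This total includes fits that could hardly change a direction. In the comparisons of varieties at the same temperature, these were the fits without a library of the other temperature. For *NRT2.1* at 29 °C, leaving out the first Duplo library at 21 °C gave 3.78, as with all libraries. In Drakkar, *NRT2.1* passed the threshold with DESeq2 (-3.60), with DESeq2 without the filter (-3.61) and with edgeR without the filter (-3.62), and ranged from -5.61 to -2.85 with 1 library left out. *NIA1* passed with DESeq2 (-3.15, and -3.16 without the filter) and ranged from -4.65 to -2.52. In Duplo, leaving out libraries gave -0.11 to 1.68 for *NRT2.1*, reversed at -0.11, and -1.32 to 0.42 for *NIA1*. For *NRT2.1*, Duplo over Drakkar at 29 °C ranged from 2.45 to 5.79. *NRT2.1* in Drakkar and *NIA1* had too few reads for the alternative with a minimum of 10 counts in each library.

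Same-numbered libraries were not treated as pairs, as a correlation of their deviations over 0.1 in every pair of a comparison was required. Between the 2 temperatures, the correlations were -0.08, 0.05 and 0.13 in Drakkar and 0.02, -0.21 and -0.04 in Duplo. Between the 2 varieties, they were 0.23, 0.09 and 0.41 at 29 °C and 0.16, 0.06 and -0.28 at 21 °C. Pairing was thus not shown, and with 3 libraries per group it was not excluded. With the replicate block, *NRT2.1* in Drakkar was -3.91 (edgeR adjusted p = 0.0338), *NIA1* was -3.09 (edgeR adjusted p = 0.103), and 5 of the 33 other nitrate genes and 545 of all genes were called in Drakkar, and 0 of all genes in Duplo. *NRT2.1* stayed called between the varieties at 29 °C with the block (4.05, edgeR adjusted p = 0.0291).

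The number of nitrate genes called in Drakkar, 18, was 9 in one fit of all 12 libraries and 0 to 19 with 1 library left out. In Duplo it was 9 with DESeq2, with or without the filter, 1 in the fit of all 12 libraries and 0 to 4 with 1 library left out. Of all genes, 1707 were called in Drakkar, 2611 with DESeq2 without the filter, 1122 in the fit of all 12 libraries and 11 to 3173 with 1 library left out. In Duplo, 1 gene was called, 929 with DESeq2, 915 with DESeq2 without the filter, 684 in the fit of all 12 libraries and 0 to 396 with 1 library left out. The cause of these differences was not tested. Low counts limit *NIA1* most, and 3 libraries per group limit each comparison.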
